A study of Mus musculus with 27 samples.

Results

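Cxcl9, Cxcl10 and Cxcl11 are the genes of the chemokines that bind the receptor CXCR3, and their transcripts were measured by RNA-seq in 27 libraries of mouse mixed glia. They were taken by gene symbol from the deposited count table, where they are 3 of 54532 genes. A count table was read for all 9 groups of 3 libraries, and comparisons were kept within each of 2 experiments. All 3 genes passed the low-count filter in experiment 1, among 16073 genes tested. In experiment 2 only Cxcl10 passed it, among 15604 genes tested.

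CXCL9, CXCL10 and CXCL11 are small secreted proteins that draw activated T cells and NK cells, which carry CXCR3, towards inflamed tissue. Their genes are textbook targets of interferon: the type II interferon IFNγ acts in part through IRF1, and Cxcl10 also answers type I interferon and NF-kB downstream of Toll-like receptors. In the brain, microglia and astrocytes are known sources of CXCL10, and CXCL9 is known for its dependence on IFNγ. Mice of the C57BL/6 strain carry a frameshift in Cxcl11 and are not known to make the functional protein, so that values of this gene describe a transcript only.

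The cultures were mixed glia from the cortex of C57BL/6 pups at postnatal days 3 to 6, grown for 14 days in vitro and then treated for 24 h. Experiment 1 held cultures with LPS, IFNγ and bryostatin together, with LPS and IFNγ, with LPS and bryostatin, with LPS alone, and with no treatment. Experiment 2 held cultures with IL-4 and bryostatin together, with IL-4 alone, with bryostatin alone, and with no treatment. Doses were 50 nM bryostatin, 100 ng/mL LPS, 20 ng/mL IFNγ and 20 ng/mL IL-4. LPS is a bacterial cell wall component that activates the receptor TLR4, IL-4 is a cytokine of type 2 immunity, and bryostatin is a modulator of protein kinase C. No group had IFNγ without LPS, and none had bryostatin alone in the experiment with LPS. The labels do not say whether replicates were separate cultures, so the p-values reflect differences among libraries that may be technical repeats. Whole cultures were sequenced, so fewer cells of a type and less RNA per cell cannot be told apart.

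Libraries held 17230058 to 28687281 counts. Marker genes of astrocytes, microglia and oligodendrocyte precursors were found in every group, and the cultures are labelled as mixed glia. Those of fibroblasts and pericytes were found in every group too. The untreated libraries labelled replicate 1 stood apart from the others of their group in both experiments. Summed oligodendrocyte markers were at 20.3 CPM (counts per 1000000 counts, scaled with TMM factors) there, against 40.3 and 42.2 CPM, in experiment 1. In experiment 2 they were at 46.8 CPM, against 24.9 and 23.6 CPM. Cxcl10 split the same way. Over 16647 genes, the experiment 1 library differed by a median of 0.134 and 0.117 on the log2 scale from replicates 2 and 3 of untreated experiment 2, and by 0.241 and 0.230 from those of its own group. The experiment 2 library differed by 0.272 and 0.328 from replicates 2 and 3 of untreated experiment 1, and by 0.344 and 0.407 from those of its own group. Each was thus closer to the other experiment's untreated libraries than to its own. Whether the pair was exchanged was not tested, and the labels were kept, so every fold against untreated carries this doubt. Values of the 3 genes against untreated are given with and without these libraries.

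The 3 genes lie side by side on the minus strand of chromosome 5 (mm10), within 44139 bases. Cxcl9 (ENSMUSG00000029417) spans chr5:92321347-92328079 and has 4 exons. Cxcl10 (ENSMUSG00000034855) follows after 18558 bases at chr5:92346638-92348889, also with 4 exons. Cxcl11 (ENSMUSG00000060183) follows after another 10654 bases at chr5:92359544-92365485, with 5 exons, and the deposited annotation lists it as a polymorphic pseudogene. Cxcl10 and Cxcl11 lie inside Art3, a gene of the ADP-ribosyltransferase family on the plus strand. The libraries were unstranded, so reads from the 133 exon bases that Cxcl10 shares with Art3 cannot be told apart by gene. Cxcl11 shares 1582 of its 3794 exon bases with the processed pseudogene Gm2673 on the plus strand, which had 0 counts in all libraries. Reads from these bases cannot be told apart by gene either, and how they were counted was not tested. Levels of Cxcl11 per length divide by all 3794 bases, so they would be too low if such reads were left out.

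The sequences just before the transcription starts are shown because letter patterns that interferon-activated and NF-kB factors are known to bind were searched there. Of the interferon and NF-kB patterns set before the search, only the ISRE core was found, in the Cxcl10 window. The windows are the 250 bases upstream of each start, from RefSeq (GRCm38.p6), and 2 of the 3 genes were matched, with starts that are also in GENCODE. The Cxcl9 window is chr5:92328080-92328329 and the Cxcl10 window chr5:92348890-92349139, both on the minus strand. Capitals mark, in Cxcl9, the TATA box letters, and in Cxcl10, from the 5′ side, the ISRE core and 2 matches to a degenerate kB consensus.
Cxcl9: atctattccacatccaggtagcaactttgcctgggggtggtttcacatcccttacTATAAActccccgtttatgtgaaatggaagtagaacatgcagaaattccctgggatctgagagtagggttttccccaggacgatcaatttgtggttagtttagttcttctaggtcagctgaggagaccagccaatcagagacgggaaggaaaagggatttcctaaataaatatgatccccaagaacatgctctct
Cxcl10: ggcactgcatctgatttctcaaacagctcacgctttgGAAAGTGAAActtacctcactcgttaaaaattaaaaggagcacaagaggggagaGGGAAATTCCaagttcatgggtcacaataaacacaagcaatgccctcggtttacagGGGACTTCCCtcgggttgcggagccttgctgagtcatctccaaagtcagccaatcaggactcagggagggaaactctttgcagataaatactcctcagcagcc
The ISRE core searched was GAAA, 2 free bases and GAAA on either strand, and Cxcl10 held it at 213 to 204 bases before the start. Of 32851 RefSeq windows of the same length, 2.98% held it. The degenerate kB consensus, chosen after the windows were seen, matched Cxcl10 at 159 to 150 and at 103 to 94 bases before the start. It was not in the Cxcl9 window and was in 3.90% of all. Because it was chosen late, it cannot show that the 2 windows differ in NF-kB letters. The narrower kB motif (GGG, 2 free bases and TTTCC) was in neither window and in 1.41% of all. The GAS motif TTCNNNGAA was in neither window and in 7.02% of all. TATAAA stood 195 to 190 bases before the Cxcl9 start, where 12.4% of all windows held it. The motifs do not overlap each other in these windows. A match or its absence is a property of these letters and windows only.

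All 3 genes were at their highest in the groups with LPS and IFNγ and at their lowest in those without LPS. Cxcl9 had 2340.2, 2115.7 and 2550.0 CPM with LPS, IFNγ and bryostatin, and 2818, 3355 and 3150.2 CPM with LPS and IFNγ. It had 16.0, 26.5 and 20.4 CPM with LPS and bryostatin, and 52.1, 67.5 and 52.6 CPM with LPS alone. Untreated libraries of experiment 1 held 0, 1 and 4 counts of Cxcl9. No pair of groups of experiment 1 overlapped in Cxcl9, and LPS with IFNγ stood at the top of the order.

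Cxcl10 had 6374, 5998 and 7368 CPM with LPS, IFNγ and bryostatin, and 6842, 6426 and 6867 CPM with LPS and IFNγ. It had 1071, 1522 and 1245 CPM with LPS and bryostatin, and 1764, 2118 and 1775 CPM with LPS alone. Untreated libraries of experiment 1 had 4.13, 11.7 and 15.5 CPM. The top pair of groups, with and without bryostatin, overlapped, and the other neighbours in the order did not.

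Cxcl11 had 602, 579 and 758 CPM with LPS, IFNγ and bryostatin, and 647, 610.1 and 671 CPM with LPS and IFNγ. It had 62.8, 91.5 and 71.4 CPM with LPS and bryostatin, and 67.6, 96.6 and 79.0 CPM with LPS alone. Untreated libraries of experiment 1 held 0, 1 and 0 counts. The groups with and without bryostatin overlapped under both stimuli, and the groups with and without IFNγ lay far apart.

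**Figure D1:**
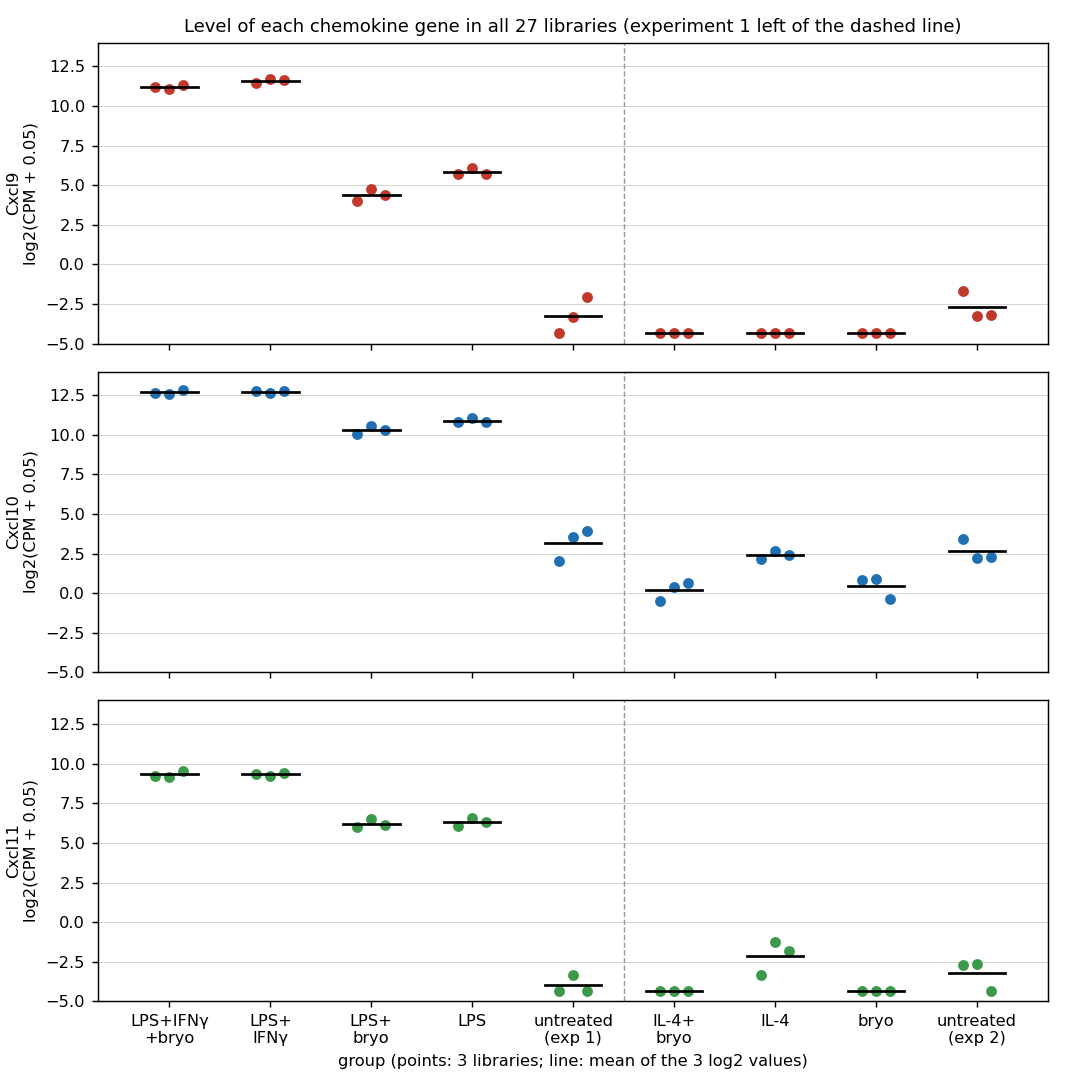
Level of Cxcl9, Cxcl10 and Cxcl11 as log2(CPM + 0.05) in all 27 libraries, by group, with a line at the mean of the 3 log2 values; experiment 1 is left of the dashed line and experiment 2 right of it. The groups with LPS stand well above the others in every panel, and bryo is short for bryostatin.

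Per length, Cxcl10 was the most abundant of the 3 in every group with LPS. In the authors' FPKM (fragments scaled by gene length and library size), Cxcl10 averaged 3056 ± 111 with LPS and IFNγ, where Cxcl9 averaged 1057 ± 95.9 and Cxcl11 174 ± 8.50 (SD, n = 3). With LPS alone, Cxcl10 averaged 859 ± 90.3, Cxcl11 21.9 ± 3.93 and Cxcl9 19.5 ± 2.92 FPKM (SD, n = 3). Cxcl9 thus stood above Cxcl11 per length with IFNγ, and a little under it with LPS alone. How far apart the 2 genes stand per length depends on how reads from the bases that Cxcl11 shares with Gm2673 were counted. Of the summed level of the 3 genes per length, Cxcl9 made up 24.7% with LPS and IFNγ and 2.16% with LPS alone. Together the genes took 0.938% of all counts with LPS and IFNγ and 0.213% with LPS alone.

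The first question was how LPS moved these genes in glia that made almost none of them. Cxcl10 rose with LPS to 1885 ± 201 CPM, against 10.4 ± 5.79 CPM in untreated cultures (SD, n = 3 each). Its log2 fold change was 7.49 ± 0.36 (SE), a 179-fold rise, with an edgeR quasi-likelihood adjusted p of 9.72e-10. Without the untreated libraries labelled replicate 1 the log2 fold change was 7.11 ± 0.19 (adjusted p = 5.23e-15, edgeR). Cxcl9 rose to 57.4 ± 8.75 CPM with LPS, against 5 counts in all untreated libraries together, with a log2 fold change of 9.31 ± 0.35 (adjusted p = 6.05e-12, edgeR). It was 8.81 ± 0.37 without untreated replicate 1 and 10.78 ± 0.45 without untreated replicate 3, which held 4 of the 5 counts. Cxcl11 had 4710 counts in the LPS group and 1 count in the untreated group, a ratio of 4900 with a 95% counting interval of 879 to 193565. Its fitted log2 fold change, which rests on that 1 count, was 11.34 without untreated replicate 1 and 13.49 without untreated replicate 2. All 3 were called higher with LPS, where 38.4% of all genes were called in either direction and 19.5% were called higher. Cxcl9 and Cxcl11, with 5 counts and 1 count in the untreated group, passed the low-count filter only through groups with LPS. A rise was thus the only call against untreated that was open to these 2 genes. With LPS and IFNγ, against untreated, the 3 were again called higher, with Cxcl10 at a log2 fold change of 9.32 ± 0.39 (adjusted p = 1.05e-10, edgeR) and at 8.95 ± 0.21 without untreated replicate 1, beside 58.1% of all genes called and 29.5% called higher.

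Genes of interferons and of their signalling were read in the comparison of LPS with untreated cultures. Ifng, the gene of IFNγ itself, had 0 counts in all 15 libraries of experiment 1, also where IFNγ had been added. Ifnb1, the gene of the type I interferon IFN-beta, had 30 counts in the LPS group and 0 in the untreated group. With 3 counts taken for the group at 0, it was 10.4-fold higher with LPS. Bounds of this kind take 3 counts over the group at 0 and leave out the counting error of the other group. The 95% counting interval of the Ifnb1 ratio, which includes it, began at 7.95. Of 18 genes of interferon receptors and signalling, all tested, 15 were called higher with LPS, 1 lower and 2 not. Among them Irf7, a transcription factor of the type I response, rose by 6.77 ± 0.29 on the log2 scale (adjusted p = 1.94e-10, edgeR). The feedback protease gene Usp18 rose by 5.22 ± 0.27. Without untreated replicate 1 these were 6.43 ± 0.13 and 4.87 ± 0.12. Irf8, which encodes another factor of this family, was the member that fell, by 0.52 ± 0.10 (adjusted p = 0.000640, edgeR). Of 15 genes of TLR4 and NF-kB signalling, 14 were called higher and none lower. Nfkbia, which encodes an inhibitor of NF-kB, was at 3.31 ± 0.14. Over all genes, 38.4% were called in this comparison and 19.5% were called higher.

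The second question was what IFNγ added to LPS. Cxcl9 rose to 3108 ± 271 CPM with LPS and IFNγ, against 57.4 ± 8.75 CPM with LPS alone (SD, n = 3 each). Its log2 fold change was 5.76 ± 0.20, which is 54.1-fold and the 10th highest of 16073 genes tested (adjusted p = 1.21e-11, edgeR). Cxcl11 rose to 643 ± 30.8 CPM, against 81.1 ± 14.6 CPM, 7.92-fold (log2 2.99 ± 0.16, adjusted p = 1.58e-09, edgeR). Cxcl10 rose to 6712 ± 248 CPM, against 1885 ± 201 CPM, 3.56-fold (log2 1.83 ± 0.28, adjusted p = 0.000158, edgeR). All 3 genes were called higher, where 36.0% of all genes were called and 19.2% were called higher. No library with LPS and IFNγ overlapped a library with LPS alone in any of the 3. The share of all genes that separate in this way was not counted.

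Marker sums differed in this comparison too. No marker was at 0 in the precursor, astrocyte, microglia and macrophage, neuron, or fibroblast and pericyte sets. Oligodendrocyte precursor markers (5 genes) ran from 203.5 to 217 CPM with LPS and IFNγ, and from 496 to 529 CPM with LPS alone. Astrocyte markers (8 genes) ran from 6573 to 7066 CPM with LPS and IFNγ, and from 8520.0 to 9029 CPM with LPS alone. Microglia and macrophage markers (8 genes) ran from 556 to 610.4 CPM with LPS and IFNγ, and from 722 to 772 CPM with LPS alone. These 3 sums were lower with IFNγ, and the sum of neuron markers (4 genes) was higher, at 101.4 to 117.0 CPM with LPS and IFNγ, and 48.5 to 52.9 CPM with LPS alone. Fibroblast and pericyte markers (5 genes) overlapped, at 1029.6 to 1657.6 CPM with LPS and IFNγ and 1657.3 to 1984.2 CPM with LPS alone. In untreated cultures of experiment 1 they ran from 545.2 to 1245.8 CPM. Microglia and astrocyte sums were higher in those cultures than with LPS alone, at 867.3 to 918.3 and 11071.8 to 13911.1 CPM. Homeostatic microglia markers (5 genes, Siglech at 0 in both groups) ran from 67.3 to 75.7 CPM with LPS and IFNγ, and from 111.5 to 122.2 CPM with LPS alone. Oligodendrocyte markers (5 genes, Mog at 0 with LPS alone) ran from 13.2 to 16.9 CPM with LPS and IFNγ, and from 30.4 to 35.1 CPM with LPS alone. The part of all these sums in the rise of the 3 chemokine genes was not tested.

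The ratios between the 3 genes within a library differed with IFNγ. Cxcl9, as a percent of Cxcl10 per length, was at 30.8, 39.0 and 34.3% in libraries with LPS and IFNγ, and at 2.21, 2.38 and 2.21% in those with LPS alone. The mean log2 ratio differed by 3.93, which is 15.2-fold. Cxcl11 was at 5.62, 5.64 and 5.80% of Cxcl10 with LPS and IFNγ, and at 2.28, 2.71 and 2.64% with LPS alone, a difference of 1.16 on the log2 scale. Cxcl9 over Cxcl11 differed by 2.76 on the log2 scale. None of these groups of 3 overlapped. A two-sided exact permutation test gave p = 0.1 for each, which is the smallest that 3 against 3 allow, and 0.109 after Benjamini-Hochberg adjustment over the 12 ratio comparisons.

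**Figure D2:**
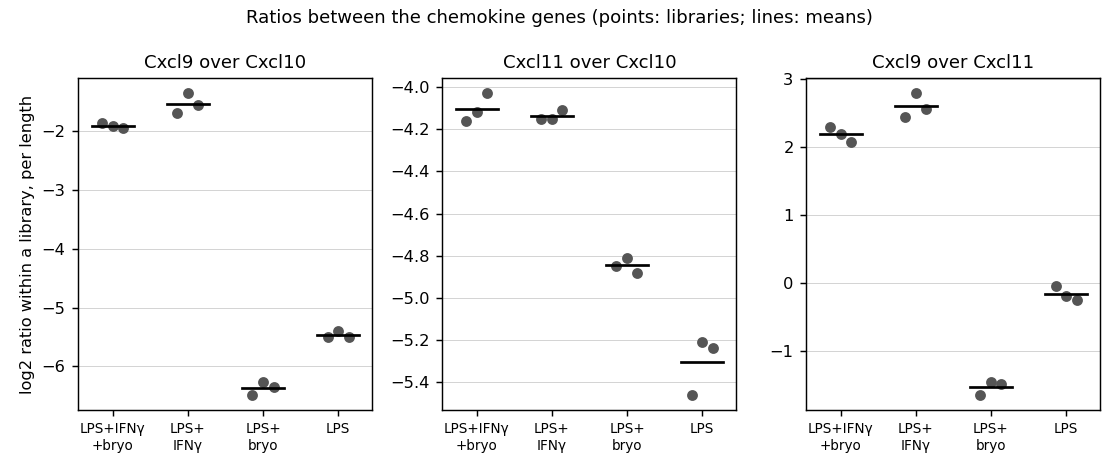
Within-library log2 ratios per length of Cxcl9 over Cxcl10, Cxcl11 over Cxcl10 and Cxcl9 over Cxcl11 in the 4 groups with LPS (points: libraries, lines: means). Cxcl9 over Cxcl10 is near -1.54 with LPS and IFNγ and near -5.46 with LPS alone, and each panel has its own scale.

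The same addition was made in the presence of bryostatin, and the order of the 3 genes was the same. Cxcl9 rose 111.2-fold with LPS, IFNγ and bryostatin, against LPS and bryostatin (log2 6.80 ± 0.21, adjusted p = 2.64e-12, edgeR). Cxcl11 rose 8.59-fold (log2 3.10 ± 0.16, adjusted p = 1.02e-09, edgeR) and Cxcl10 rose 5.14-fold (log2 2.36 ± 0.28, adjusted p = 1.77e-05, edgeR). In that comparison 36.9% of all genes were called and 18.9% were called higher.

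Genes around the chemokines in the interferon pathway were read in the same comparison of LPS and IFNγ with LPS alone. Of the 18 interferon receptor and signalling genes, 10 were called higher, 2 lower and 6 not. Their median log2 fold change was 0.42, beside -0.01 over all genes. In this comparison 36.0% of all genes were called and 19.2% were called higher. Irf1, the transcription factor gene best known as a direct IFNγ target, had 1391, 1222 and 1363 CPM with LPS and IFNγ, and 107.9, 119.7 and 109.9 CPM with LPS alone. It rose by 3.56 ± 0.11 (adjusted p = 2.04e-12, edgeR). Socs1, a feedback inhibitor of this signalling, rose by 3.34 ± 0.13 and Irf8 by 3.02 ± 0.10. Of 12 interferon and inducer genes, 4 were tested and all 4 were called higher, with Il12b, a subunit of the cytokines IL-12 and IL-23, at 4.57 ± 0.31 and Ifnb1 at 1.41 ± 0.40 (adjusted p = 0.0132, edgeR). Without LPS replicate 3, Il12b was at 5.31 (adjusted p = 1.92e-09, edgeR). Ifnb1 rests on 66 counts with LPS and IFNγ and 30 with LPS alone, and leaving out LPS replicate 1 or LPS and IFNγ replicate 3 took it to adjusted p = 0.0520 and 0.0577. By library it had 8, 11 and 11 counts with LPS alone, and 18, 21 and 27 with LPS and IFNγ. The low-count filter passes a gene that is high in any group, so near the floor it favours genes that rose. The count of 4 called of 4 tested is partly set by that filter.

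Other chemokines of the CXC and CX3C classes did not share one direction. Of 11 tested, 10 were called higher with LPS against untreated and none lower, beside 19.5% of all genes called higher. Cxcl3, with 2 counts in the untreated group, passed the low-count filter only through groups with LPS. With IFNγ added to LPS, 3 were called higher, 5 lower and 3 not, beside 36.0% of all genes called and 19.2% called higher. The 3 were Cxcl16, the ligand of CXCR6 (1.30 ± 0.10), Cx3cl1, fractalkine (1.06 ± 0.07), and Cxcl12, the ligand of CXCR4 (0.98 ± 0.11). Among the 5 lower were Pf4, platelet factor 4 (-3.18 ± 0.31), and the neutrophil attractants Cxcl5 (-1.61 ± 0.27) and Cxcl2 (-1.12 ± 0.20). The B-cell attractant Cxcl13 fell by 0.99 ± 0.23 (adjusted p = 0.00330, edgeR).

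The third question was what bryostatin did to these genes under LPS. Cxcl9 fell to 21.0 ± 5.27 CPM with LPS and bryostatin, against 57.4 ± 8.75 CPM with LPS alone (SD, n = 3 each). That is 36.5% of the LPS level, a log2 fold change of -1.45 ± 0.17 (adjusted p = 0.000101, edgeR), and the highest library with bryostatin, 26.5 CPM, was under the lowest without it, 52.1 CPM. Cxcl10 was at 1279 ± 227 CPM with LPS and bryostatin, against 1885 ± 201 CPM with LPS alone, which is 67.8% (log2 -0.56 ± 0.27, 95% interval -1.14 to 0.02). It did not pass the test (unadjusted p = 0.0577, adjusted p = 0.282, edgeR), although the groups did not overlap. Cxcl11 was at 75.2 ± 14.7 CPM, against 81.1 ± 14.6 CPM, with overlapping groups and a log2 difference of -0.11 ± 0.15 (95% interval -0.43 to 0.21, adjusted p = 0.780, edgeR). So 1 of 3 was called, lower, where 6.89% of all genes were called and 3.55% were called lower.

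The call for Cxcl10 depended on the untreated libraries, which share the estimate of spread. Without both untreated libraries labelled replicate 1 its log2 fold change was again -0.56, with adjusted p = 0.00414, and with only the compared groups fitted adjusted p was 0.0238 (edgeR). Sums of cell type markers also differed in the same comparison. Summed microglia and macrophage markers (8 genes, none at 0) ran from 589 to 636 CPM with LPS and bryostatin, and from 722 to 772 CPM with LPS alone. Summed astrocyte markers (8 genes, none at 0) ran from 6606 to 6869 CPM with LPS and bryostatin, and from 8520.0 to 9029 CPM with LPS alone. Summed neuron markers (4 genes, none at 0) stood higher, at 83.2 to 93.8 CPM with LPS and bryostatin, and 48.5 to 52.9 CPM with LPS alone. Their part in the fall of Cxcl9 was not tested.

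The ratios within a library also differed with bryostatin under LPS. Cxcl9 was at 1.12, 1.30 and 1.22% of Cxcl10 per length with LPS and bryostatin, and at 2.21, 2.38 and 2.21% with LPS alone. The log2 ratio was -6.37 ± 0.11 and -5.46 ± 0.06 (SD, n = 3 each), and the groups did not overlap (exact permutation p = 0.1, adjusted 0.109). Cxcl11 was at 3.48, 3.57 and 3.41% of Cxcl10 with LPS and bryostatin, and at 2.28, 2.71 and 2.64% with LPS alone, again without overlap. Cxcl9 was at 32.1, 36.4 and 35.9% of Cxcl11 with LPS and bryostatin, and at 97.0, 87.8 and 83.8% with LPS alone.

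Under LPS and IFNγ together, none of the 3 passed the test for bryostatin, where 3.38% of all genes were called and 1.58% were called lower. Cxcl9 was at 2335 ± 217 CPM with LPS, IFNγ and bryostatin, against 3108 ± 271 CPM with LPS and IFNγ (SD, n = 3 each), which is 75.1%. The groups did not overlap, and the log2 difference was -0.41 ± 0.16 (95% interval -0.75 to -0.07, adjusted p = 0.213, edgeR). Cxcl10 differed by -0.03 ± 0.27 (95% interval -0.61 to 0.55) and Cxcl11 by 0.01 ± 0.15 (95% interval -0.31 to 0.32). Unadjusted p was 0.0215 for Cxcl9, 0.917 for Cxcl10 and 0.956 for Cxcl11, and DESeq2 called none of the 3 either. Marker sums differed here too, given with bryostatin first. Astrocyte markers ran from 4635 to 4664 and 6573 to 7066 CPM, and microglia and macrophage markers from 464.6 to 553.7 and 556.2 to 610.4 CPM. Higher with bryostatin were neuron markers, at 127.8 to 141.7 and 101.4 to 117.0 CPM, and precursor markers, at 247.0 to 266.8 and 203.5 to 216.9 CPM. Their part in the Cxcl9 difference was not tested.

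Whether bryostatin's effect on Cxcl9 differed between the stimuli was tested as an interaction. The effect was 1.04 ± 0.24 higher on the log2 scale with LPS and IFNγ than with LPS (unadjusted p = 0.000497), and it did not pass adjustment over all genes (adjusted p = 0.152, edgeR), where 0.118% of all genes were called. It passed in DESeq2 (1.05, adjusted p = 0.00282), without both untreated libraries labelled replicate 1 (1.04, adjusted p = 0.0263) and with only the compared groups fitted (1.07, adjusted p = 0.0335), and over all alternatives adjusted p ran from 0.00282 to 0.425. The interaction was 0.53 ± 0.38 for Cxcl10 (adjusted p = 0.951) and 0.12 ± 0.21 for Cxcl11 (adjusted p = 1, edgeR).

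**Figure D3:**
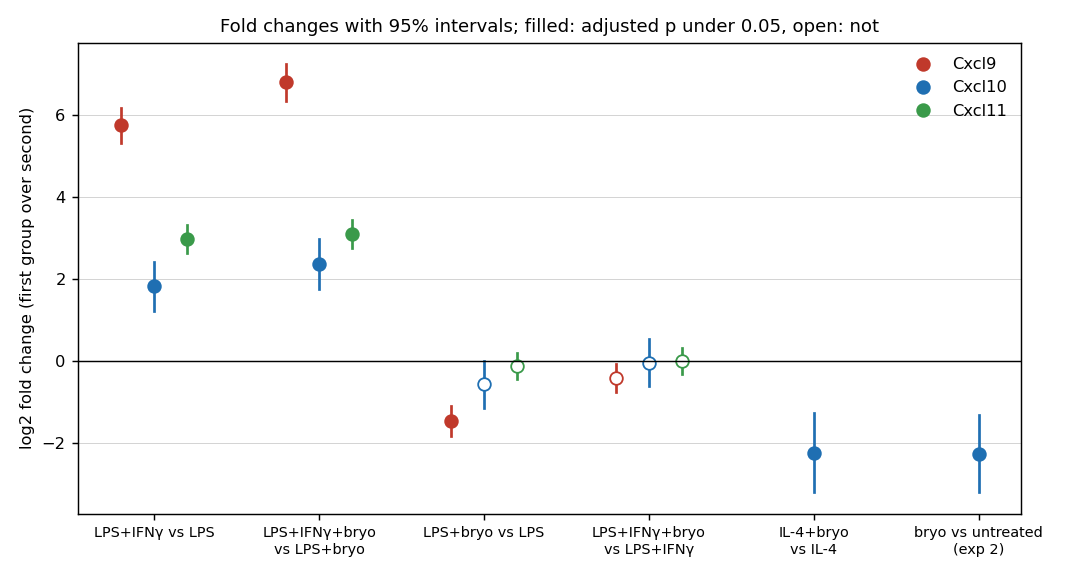
Log2 fold changes of the 3 genes with 95% intervals in 6 comparisons, each of the first-named group over the second (filled: adjusted p under 0.05, open: not). Cxcl9 has the largest change of the 3 with IFNγ (5.76 and 6.80) and is the one called with bryostatin under LPS (-1.45), and Cxcl9 and Cxcl11 were not tested in experiment 2.

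Of the 18 interferon receptor and signalling genes, 2 were called lower with bryostatin under LPS, none higher and 16 not, beside the 6.89% called over all genes. Irf1 had 68.0, 74.5 and 78.8 CPM with LPS and bryostatin, and 107.9, 119.7 and 109.9 CPM with LPS alone. It fell by 0.61 ± 0.10 (adjusted p = 0.00134, edgeR), and the groups did not overlap. Ifngr1, a chain of the IFNγ receptor, fell by 0.31 ± 0.09 (adjusted p = 0.0418, edgeR), a call lost when any 1 of the 6 libraries was left out (adjusted p 0.0994 to 0.152). Ifnb1 differed by 0.29 ± 0.42 (adjusted p = 0.794, edgeR). Under LPS and IFNγ none of the 18 was called with bryostatin (edgeR), beside 3.38% of all genes, and Irf1 differed by -0.08 ± 0.10. Of the 15 TLR4 and NF-kB genes, 1 was called with bryostatin under LPS, the adaptor gene Ticam2, which fell by 1.00 ± 0.24 (adjusted p = 0.0205, edgeR). That count is near the share over all genes, and the call was lost in 5 of the 6 fits with 1 library left out, all but that without LPS and bryostatin replicate 2 (adjusted p 0.0387 to 0.0901 over the 6). Fits with only the compared groups called 6 of the 18 and 9 of the 15, beside 22.0% of all genes.

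Among the other CXC and CX3C chemokines, 2 were called higher with bryostatin under LPS, 2 lower and 7 not, beside 6.89% of all genes called. Cxcl13 fell to 0.798 ± 0.148 CPM with LPS and bryostatin, against 6.93 ± 1.12 CPM with LPS alone (SD, n = 3 each), a log2 fold change of -3.11 ± 0.27 (adjusted p = 3.96e-06, edgeR). Cxcl5 fell by 1.44 ± 0.26 (adjusted p = 0.00439, edgeR). Cxcl3, a neutrophil attractant, rose by 1.06 ± 0.18 (adjusted p = 0.00174, edgeR). Pf4 rose by 0.97 ± 0.24 (adjusted p = 0.0250, edgeR), a call lost without LPS replicate 2 or 3, or LPS and bryostatin replicate 1 or 3 (adjusted p 0.0559 to 0.130). Under LPS and IFNγ, Cxcl13 fell by 1.90 ± 0.27 (adjusted p = 0.000774, edgeR) and Cxcl3 rose by 0.84 ± 0.19 (adjusted p = 0.0204, edgeR), the Cxcl3 call being lost without any of 4 single libraries (adjusted p 0.0538 to 0.105). Each of these comparisons shares 3 libraries with that of LPS and IFNγ against LPS.

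**Figure D4:**
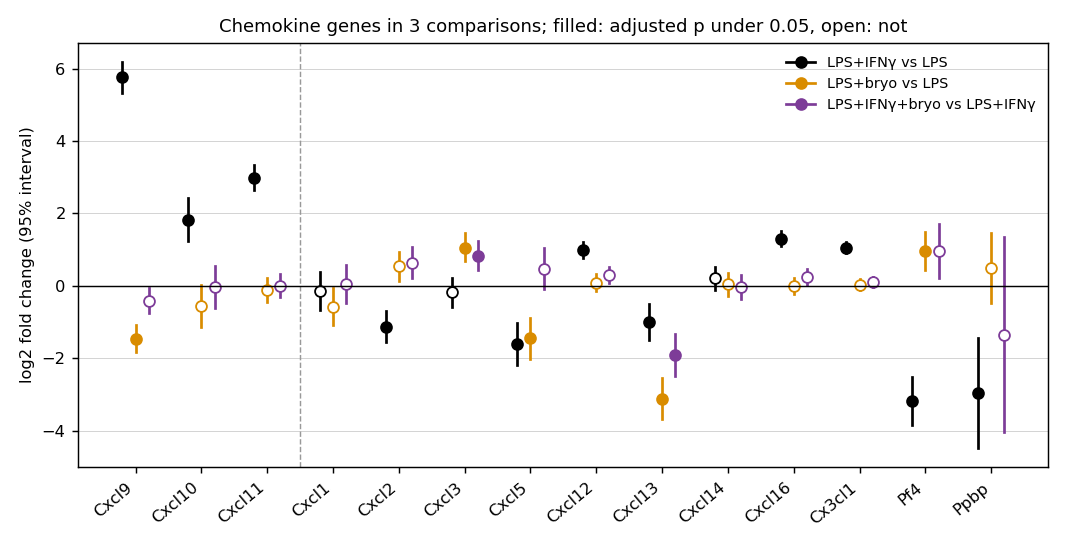
Log2 fold changes with 95% intervals of Cxcl9, Cxcl10 and Cxcl11 (left of the dashed line) and of the 11 other CXC and CX3C chemokine genes tested, in 3 comparisons (filled: adjusted p under 0.05, open: not). Cxcl9 is highest with IFNγ at 5.76, and Cxcl13 is lowest with bryostatin under LPS at -3.11.

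In experiment 2, without LPS, Cxcl10 was the measurable member and stood lower with bryostatin. It had 1.74, 1.78 and 0.743 CPM with bryostatin alone, and 10.8, 4.73 and 4.84 CPM in untreated cultures. Cxcl10 fell to 21.1% of untreated (log2 -2.25 ± 0.43, adjusted p = 0.0194, edgeR), and the groups did not overlap. Of all genes, 3.62% were called in this comparison and 1.51% were called lower. Without the untreated library labelled replicate 1 the log2 fold change was -1.76 ± 0.36 (adjusted p = 0.0276, edgeR). Without bryostatin replicate 1 or 3 adjusted p was 0.0592 and 0.0639, and with only the compared groups fitted it was 0.197.

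Cxcl10 had 0.673, 1.24 and 1.55 CPM with IL-4 and bryostatin, and 4.34, 6.42 and 5.22 CPM with IL-4 alone. It fell to 21.3% (log2 -2.23 ± 0.44, adjusted p = 0.0172, edgeR), again without overlap, and ranked 23rd from the lowest of 15604 genes. In that comparison 4.13% of all genes were called and 1.42% were called lower. The call was lost without IL-4 replicate 2 or without any 1 of the IL-4 and bryostatin libraries (adjusted p 0.0540 to 0.0776). The difference between bryostatin's effects with and without IL-4 was 0.01 ± 0.69 (95% interval -1.49 to 1.52, adjusted p = 0.999, edgeR). In this interaction no gene was called (0.00%, edgeR), 327 had an unadjusted p under 0.05, where 5% of the genes tested is 780, and DESeq2 called 4.

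IL-4 itself did not move Cxcl10 past the test. Cxcl10 averaged 5.33 ± 1.04 CPM with IL-4 and 6.79 ± 3.47 CPM in untreated cultures (SD, n = 3 each), a log2 difference of -0.35 ± 0.39 (95% interval -1.21 to 0.51, adjusted p = 0.619, edgeR), where 0.583% of all genes were called. The sign of that difference turned without the untreated library labelled replicate 1 (0.15 ± 0.33). With bryostatin in both groups, IL-4 and bryostatin against bryostatin alone gave -0.34 ± 0.46 (95% interval -1.35 to 0.67, adjusted p = 1, edgeR), where 0.910% were called.

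Cxcl9 and Cxcl11 were at the edge of detection in experiment 2. Cxcl9 had 0 counts in all 9 libraries with IL-4, bryostatin or both, and 5, 1 and 1 counts in untreated libraries. The 95% counting interval of the ratio to untreated ran up to 0.692 with bryostatin alone and up to 0.655 with IL-4 alone. Most of these counts were in untreated replicate 1, and the 2 counts left without it are under the 3 counts a bound needs, so no fold is given. Counting intervals and bounds cover no difference between libraries. Cxcl11 had 0 counts in every library with bryostatin. It had 1, 7 and 4 counts with IL-4, and 2, 2 and 0 counts in untreated libraries. With 3 counts taken for the group at 0, Cxcl11 was 4.51-fold lower with IL-4 and bryostatin than with IL-4. That value leaves out the counting error of the 12 counts with IL-4. The 95% counting interval of the ratio, which includes it, ran up to 0.319. For bryostatin alone against untreated that interval ran up to 1.51, so no difference could be detected at this depth. A fit of all 27 libraries, in which Cxcl11 could be tested, gave -4.96 ± 1.32 for IL-4 and bryostatin against IL-4 (adjusted p = 0.0244, edgeR), and a fit with no low-count filter gave adjusted p = 0.205.

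In experiment 2, marker sums differed in both directions. Microglia and macrophage markers ran from 1386 to 1685 CPM with IL-4 and bryostatin, and from 821 to 1150.2 CPM with IL-4 alone. They ran from 1154 to 1503 CPM with bryostatin alone, and from 1018 to 1122 CPM in untreated cultures. Homeostatic microglia markers (5 genes) went the other way, at 164.5 to 184.1 CPM with IL-4 and bryostatin, and 192.2 to 232.2 CPM with IL-4 alone. These markers ran from 283.5 to 332.8 CPM with bryostatin alone, and from 336.9 to 362.6 CPM in untreated cultures. Astrocyte markers ran from 7971 to 9009 CPM with IL-4 and bryostatin, and from 11020 to 11785 CPM with IL-4 alone. They ran from 8024 to 9926 CPM with bryostatin alone, and from 11898 to 16309 CPM in untreated cultures. So where Cxcl10 was lower, the microglia and macrophage sum was higher, and the homeostatic microglia and astrocyte sums were lower. The part of these sums in the fall of Cxcl10 was not tested. Irf1 was not called with bryostatin alone (-0.57 ± 0.15, adjusted p = 0.0650, edgeR), and DESeq2 gave adjusted p = 0.0113. With IL-4 and bryostatin against IL-4, Irf1 differed by -0.29 ± 0.15 (adjusted p = 0.392, edgeR). Of the 18 interferon receptor and signalling genes none was called with bryostatin alone (edgeR), while DESeq2 called 3, beside 8.57% of all genes, and the fit of all 27 libraries 5, beside 9.30%.

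The receptor and the cells that carry it were all but missing. Cxcr3, the gene of the shared receptor, was not tested and had at most 12 counts in any group of 3 libraries. In experiment 1 it had 2 counts with LPS, IFNγ and bryostatin, 9 with LPS and IFNγ, 4 with LPS and bryostatin, 10 with LPS alone and 3 in untreated cultures. In experiment 2 it had 2 counts with IL-4 and bryostatin, 1 with IL-4, 6 with bryostatin alone and 12 in untreated cultures. The summed levels of 7 markers of T and NK cells were at most 1.21 CPM in any library, and Cd3e, Cd3g and Ncr1 were at 0 in all. Dpp4, the protease that trims these chemokines, rose with LPS by 1.36 ± 0.48 (adjusted p = 0.0341, edgeR), and Ackr3, an atypical receptor of CXCL11 and CXCL12, rose by 1.49 ± 0.34 (adjusted p = 0.00295, edgeR). Without untreated replicate 1, Dpp4 was at 1.01 ± 0.46 (adjusted p = 0.0855, edgeR) and Ackr3 at 1.07 ± 0.11. The Dpp4 call was also lost without untreated replicate 3 or LPS replicate 1 or 2 (adjusted p 0.0600 to 0.132). With only the compared groups fitted none of the 3 genes tested from this list was called, beside 35.9% of all genes, and neither Dpp4 nor Ackr3 was called with bryostatin under LPS.

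Of the genes within 100 kb of the chemokine genes on chromosome 5, Naaa, Sdad1, Art3, Nup54 and Scarb2 were tested in experiment 1. None of these 5 was called higher with IFNγ added to LPS (edgeR), and Art3 and Naaa were called lower. Over all genes, 36.0% were called and 19.2% were called higher, and 2 of 5 called is near that share. Art3, which contains Cxcl10 and Cxcl11, averaged 11.4 ± 2.19 CPM with LPS and IFNγ, against 18.8 ± 2.32 CPM with LPS alone (SD, n = 3 each). It fell by 0.72 ± 0.15 (adjusted p = 0.00173, edgeR), where the 3 chemokine genes rose. With LPS against untreated, Art3 rose by 2.88 ± 0.18 (adjusted p = 1.34e-09, edgeR), and with bryostatin under LPS it differed by 0.08 ± 0.15 (adjusted p = 0.842, edgeR). Naaa, which encodes an acid amidase, fell with bryostatin under LPS by 0.50 ± 0.08 (adjusted p = 0.00140, edgeR). Sdad1, Nup54 and Scarb2 were not called with IFNγ or with bryostatin under LPS, with log2 differences of -0.11 to 0.10.

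**Figure D5:**
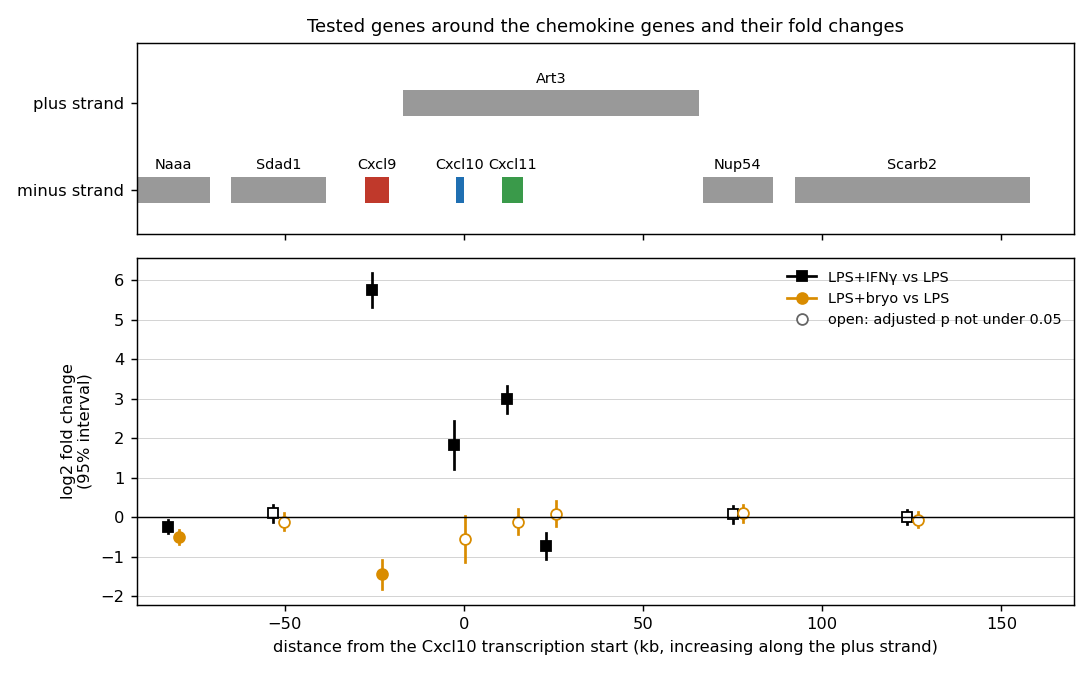
Tested genes around the chemokine genes by distance in kb from the Cxcl10 start (top, by strand) and their log2 fold changes with 95% intervals (bottom) for LPS and IFNγ against LPS (squares) and LPS and bryostatin against LPS (circles), with open symbols for an adjusted p not under 0.05. With IFNγ the 3 chemokine genes lie at 1.83 to 5.76, while Art3 lies at -0.72.

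Across the 15 libraries of experiment 1 the 3 genes followed each other closely, as a description over libraries that share treatments. On log2(CPM + 0.5), Pearson's r was 0.990 for Cxcl10 and Cxcl11, 0.954 for Cxcl9 and Cxcl11 and 0.923 for Cxcl9 and Cxcl10. Among 12084 protein-coding genes, those most like Cxcl9 were Tgm2, Tapbpl, Tap2, Ifit2 and Coch (r 0.997 to 0.998). Those most like Cxcl10 were Vcam1, Stat2, H2-T23, Oasl1 and Ifi47 (r 0.998 to 0.999). Those most like Cxcl11 were Casp1, Slamf7, Cx3cl1, Aida and Stx11 (r 0.998 to 0.999). The 3 lists had no gene in common. Tap2, a peptide transporter gene of antigen presentation, averaged 499 CPM with LPS and IFNγ and 157 CPM with LPS alone. Vcam1, an adhesion molecule gene, averaged 3427 CPM with LPS and IFNγ and 1861 CPM with LPS alone. The lists depended on the measure: with Spearman's rank correlation 0, 1 and 1 of the 5 genes of Cxcl9, Cxcl10 and Cxcl11 were the same.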

How the data were processed

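The members and gene lists were chosen with earlier results of these data known. The submitters' processing notes name fastp, STAR, featureCounts and the build mm10, with no versions. The authors deposited raw counts of reads per gene, and all tests rest on these. The authors also deposited FPKM values, used here only to compare levels between genes per length.

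The tests used edgeR 4.0.16 in R 4.3.3: a low-count filter by group, TMM factors and a robust quasi-likelihood F test, two-sided. Each experiment had its own fit with all of its groups. P-values were adjusted (Benjamini-Hochberg) over every gene tested in the comparison, and an adjusted p under 0.05 counted as a call. Ratios within a library, per length, were compared by two-sided exact permutation tests. Intervals of log2 fold changes are at 95%, from the SE and the test's degrees of freedom. A fold against 0 counts is a bound that takes 3 counts over the group. The code was tested on simulated data.

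Named genes were the 3 members everywhere, called genes of each list by size of fold change, receptor and interferon genes, the 5 genes most like each member with at least 5 CPM in the highest group, and neighbours within 100 kb. One gene of the interferon list is counted in it but not reported by name here. Alternatives were DESeq2 1.42.0, its size factors, no filter, other sets of libraries, the replicate block, another offset for the ratios and other measures of likeness.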

Additional observations from a re-analysis of the deposited data

How the results depend on the processing

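Of 361 values of the 3 genes under alternatives, 334 kept direction and side of the threshold. Numbers of genes called moved more. DESeq2 called 856 genes for bryostatin under LPS and IFNγ (543 in edgeR), 95 in the bryostatin by IFNγ interaction (19), 1337 for bryostatin alone (565), 223 for IL-4 (91), 1213 for bryostatin under IL-4 (644), 223 for IL-4 under bryostatin (142) and 4 in the IL-4 interaction (0). Without a low-count filter the IFNγ interaction had 55 calls. A fit of all 27 libraries gave 7 calls there, 1548 for bryostatin alone, 224 for IL-4, 1325 for bryostatin under IL-4, 233 for IL-4 under bryostatin and 5 in the IL-4 interaction. With only the compared groups fitted, 3354 genes were called for bryostatin under LPS (1108 in the fit of all groups), 112 in the IFNγ interaction, 9 for bryostatin alone, 41 for IL-4 and 2703 for bryostatin under IL-4. Leaving out the untreated replicate 1 of both experiments gave 2148 calls for bryostatin under LPS, 1380 under LPS and IFNγ, 114 in the interaction, 1355 under IL-4 and 198 for IL-4 under bryostatin. The causes were not tested.

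For the members, the Cxcl9 interaction passed at 1.05 in DESeq2, 1.07 with only the compared groups and 1.04 without the untreated libraries labelled replicate 1. Cxcl10 with bryostatin under LPS passed at -0.56 in these same last settings, and with bryostatin alone it missed at -2.24 with only the compared groups. Cxcl10 turned sign for IL-4 (0.15) and for the IL-4 interaction (-0.49) without those untreated libraries, and for the interaction (-0.04) in the fit of all 27; none of these was called.

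With 1 library left out at a time, values ran as follows. For LPS against untreated, Cxcl9 ran from 8.81 to 10.78, Cxcl10 from 7.11 to 7.88 and Cxcl11 from 11.27 to 13.49. For LPS and IFNγ against untreated, Cxcl9 ran from 14.57 to 16.53, Cxcl10 from 8.95 to 9.72 and Cxcl11 from 14.26 to 16.48. For bryostatin under LPS, Cxcl10 ran from -0.70 to -0.45, Cxcl11 from -0.27 to 0.03 and Art3 from -0.01 to 0.17, with 588 to 689 genes called. Under LPS and IFNγ, Cxcl10 ran from -0.11 to 0.03, Cxcl11 from -0.11 to 0.08, with 242 to 434 genes called. In the IFNγ interaction, Cxcl9 ran from 0.89 to 1.24, Cxcl11 from -0.02 to 0.28, with 4 to 19 genes called. For bryostatin alone, Cxcl10 ran from -2.45 to -1.76, with 188 to 824 genes called. For bryostatin under IL-4 it ran from -2.51 to -1.93, with 172 to 371 genes called. For IL-4 it ran from -0.54 to 0.15, for IL-4 under bryostatin 68 to 119 genes were called, and the Cxcl10 difference of effects ran from -0.49 to 0.31.

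Same-numbered libraries correlated over 0.1 in 3 of 30 pairs of experiment 1 and 6 of 18 of experiment 2. In experiment 2 these correlations ran from -0.565 to 0.633. With 3 libraries per group they cannot settle whether replicate numbers pair the libraries. With the replicate block Cxcl9 was at -1.46 (adjusted p = 0.000128, edgeR) for bryostatin under LPS and Cxcl10 at -2.25 (adjusted p = 0.0415) for bryostatin alone, and 963 and 422 genes were called. No call of a member changed with the block. Lists of most like genes shared 0, 1 and 1 of 5 genes for Cxcl9, Cxcl10 and Cxcl11 under Spearman's correlation, and with 0.1 CPM added shared 1 for Cxcl9 and 2 for Cxcl11.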
